A study of Mus musculus with 26 samples.

Results

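The 10 genes described here encode ligands of the tumour necrosis factor (TNF) superfamily. They are Tnf, Lta, Ltb, Tnfsf4, Tnfsf8, Tnfsf9, Tnfsf10, Tnfsf11, Tnfsf14 and Cd40lg, taken by symbol from tables that list 24848 genes for each of 26 libraries. All 10 were listed, and all 10 passed the filter on low counts. RNA was sequenced in bulk from CD4 T cells of C57BL/6 mice with actively induced experimental autoimmune encephalomyelitis (EAE), an autoimmune disease of the central nervous system (CNS). All mice carried Foxp3Cre-ERT2, a Cre recombinase made in Foxp3-expressing cells that enters the nucleus under tamoxifen, and all were given tamoxifen between day 7 and day 14. All libraries are from day 14 of EAE. The icKO mice were Foxp3Cre-ERT2 x Tnfrsf1bFlox/Flox, so that loss of Tnfrsf1b, the gene of TNF receptor 2 (TNFR2), was directed at regulatory T cells. The Ctrl mice carried Foxp3Cre-ERT2 without the floxed alleles. CD4+Foxp3+ regulatory cells (Treg) and CD4+Foxp3- conventional cells (Tconv) came from the CNS or from the draining lymph nodes (dLN). Treg groups had 3 libraries each in either tissue and genotype. CNS Tconv groups had 4 libraries each, and dLN Tconv groups had 3 each. Each library is labelled as a mouse replicate of its group. The labels do not say whether same-numbered libraries of different groups share a mouse. Tconv cells of icKO mice are not the cells in which the Cre is made.

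In 25 libraries the expected counts summed to between 12.4 and 18.5 M, and 11089 to 14257 genes were detected. A single one, labelled dLN Tconv icKO replicate 3, stood apart with 7.78 M counts and 6005 genes, and its best rank correlation with another library was 0.7, against at least 0.944 for the others. Tests were run without it on 25 libraries, which leaves 2 dLN Tconv icKO libraries, and again on all 26. Each fit estimates spread over all groups together, and its common dispersion was 0.142 on 25 and 0.364 on 26 libraries. Fewer genes were then called also in comparisons that do not include that library. Between tissues in Ctrl Treg cells, 21.8% of all genes were called on 25 and 5.74% on 26 libraries. The deposited tables of 5 CNS Tconv libraries (icKO replicates 2, 3 and 4, Ctrl replicates 3 and 4) carry names that match the other genotype. The labels were followed, and calls that are lost without those 5 libraries are named as such. Foxp3 was at 22.6 to 67.5 CPM of the library total in Treg libraries, and at 0.111 to 1.5 CPM in Tconv libraries. In CNS Treg cells Tnfrsf1b had a mean of 406 ± 89.6 CPM in icKO libraries, against 610.0 ± 137 CPM in Ctrl. In dLN Treg cells the means were 619 ± 1.2 CPM in icKO and 795 ± 60.5 CPM in Ctrl libraries (SD, n = 3 each). Neither difference passed the test. Reads were counted over all exons together, and which exons are floxed is not given in the sources used here.

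TNF superfamily ligands are trimers, most of them held in the membrane, and they act on receptors that recruit TRAF adaptors or death domains and switch on NF-kB. Tnf is made as a membrane protein and shed by the protease ADAM17. It binds TNFR1 and TNFR2, and the membrane form is the stronger activator of TNFR2. Lymphotoxin-alpha (Lta) binds the same receptors when secreted, and with lymphotoxin-beta (Ltb) it forms a membrane complex that binds the lymphotoxin-beta receptor. Cd40lg, CD40 ligand, is the signal by which activated helper T cells license B cells and antigen-presenting cells. Tnfsf4 (OX40 ligand), Tnfsf8 (CD30 ligand), Tnfsf9 (the ligand of the receptor encoded by Tnfrsf9) and Tnfsf14 (LIGHT) are costimulatory ligands. Tnfsf10 (TRAIL) can trigger death receptors, and Tnfsf11 (RANKL) drives osteoclast and lymph node development. In EAE, T cell-derived TNF and lymphotoxins have long been studied as inflammatory mediators, while TNFR2 is known as a receptor that supports Treg cells.

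The genes of TNF and both lymphotoxins lie side by side on chromosome 17, in the order Ltb, Tnf, Lta (GENCODE annotation of GRCm38). Tnf spans 35199381 to 35202007 on the minus strand, and Lta spans 35203165 to 35205351 on the same strand, 1157 bases from Tnf. Ltb runs the other way, from 35194439 to 35196320 on the plus strand, 3060 bases from Tnf. Tnfsf9 (57105325 to 57107757, plus strand) and Tnfsf14 (57189492 to 57194177, minus strand) are on the same chromosome, 81734 bases apart. The other 5 members are each on a chromosome of their own, Tnfsf4 on 1, Tnfsf10 on 3, Tnfsf8 on 4, Tnfsf11 on 14 and Cd40lg on X. Tnfsf9 overlaps the antisense gene Gm11110, and the libraries do not keep strand, so reads of those genes cannot be told apart. Upstream sequence is shown for 3 members: Tnf, which spread widely between CNS libraries, Ltb, which had the highest level, and Tnfsf14. In icKO mice the tissue difference of Tnfsf14 was called different between Treg and Tconv cells on 25 libraries. That difference was not called in Ctrl mice, and it had the other sign on all 26 libraries. The sequences are from RefSeq (GRCm38.p6), 5′ to 3′ on the gene's own strand, for Tnf chr17:35202008-35202207 (minus), Ltb chr17:35194307-35194438 (plus) and Tnfsf14 chr17:57194182-57194381 (minus). The Ltb line stops where the GENCODE gene starts. Capitals mark matches to the NFAT core GGAAA, which reads TTTCC on the other strand. They also mark the TATA box (TATAAA), the AP-1 site (TGANTCA) and the NF-kB consensus by its name.
Tnf: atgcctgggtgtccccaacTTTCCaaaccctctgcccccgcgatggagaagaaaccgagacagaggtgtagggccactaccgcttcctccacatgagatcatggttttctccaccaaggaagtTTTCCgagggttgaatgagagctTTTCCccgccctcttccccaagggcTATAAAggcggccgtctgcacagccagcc
Ltb: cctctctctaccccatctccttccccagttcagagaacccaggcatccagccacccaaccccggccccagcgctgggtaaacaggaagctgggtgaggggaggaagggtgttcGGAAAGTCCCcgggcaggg
Tnfsf14: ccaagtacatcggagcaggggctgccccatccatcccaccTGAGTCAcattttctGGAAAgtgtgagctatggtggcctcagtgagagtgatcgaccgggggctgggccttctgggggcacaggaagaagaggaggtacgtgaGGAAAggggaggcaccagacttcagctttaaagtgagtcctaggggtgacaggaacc
The Tnf window held GGAAA 3 times, at bases -181, -77 and -54 counted from the RefSeq start, and TATAAA at -29. The Ltb window held an NF-kB consensus match at -87, which overlaps a GGAAA. The Tnfsf14 window held TGANTCA at -160 and GGAAA at -145 and -57. Over 7 members with a RefSeq promoter, both strands were searched in the 200 bases before the start, and each of the 7 held GGAAA, while TATAAA was found for Tnf, Lta and Tnfsf11. Of 32851 promoter windows of that length, 47.6% held GGAAA, 9.96% TATAAA, 5.48% TGANTCA and 3.18% the NF-kB consensus. These matches describe the sequence and do not show that a factor binds there.

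Per length of transcript, Ltb was by far the most abundant of the ligands. Its deposited TPM averaged 1019 to 1681 over the 8 groups and made up 57.9 to 80.9% of the summed TPM of the 10 genes. In no group did a library's Ltb overlap the next gene. Cd40lg came next in 7 of 8 groups, at 209.5 to 275 TPM in the 4 Tconv groups, and it stood clear of the gene below it in the Tconv groups except CNS Tconv icKO, where it overlapped Tnf. In CNS Treg icKO libraries Lta (86.7 ± 75.7 TPM, SD) came before Cd40lg (67 ± 25.7 TPM), with overlapping libraries (n = 3). Below these, Lta (35.6 to 149 TPM), Tnf (27.3 to 186 TPM), Tnfsf8 (33.4 to 108 TPM) and Tnfsf11 (28.4 to 53.3 TPM) changed places between groups. Tnfsf14 (13.4 to 29.5 TPM), Tnfsf9 (7.93 to 41.7 TPM) and Tnfsf10 (7.55 to 20.4 TPM) were below them in most groups. Tnfsf4 was last in every group, with means of 0.58 to 2.76 TPM. It had a count of 0 in 5 of the 25 libraries, and 3 counts, the limit that a count of 0 allows for counting error alone, are fewer than the 7 counts of the lowest library above 0.

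**Figure D1:**
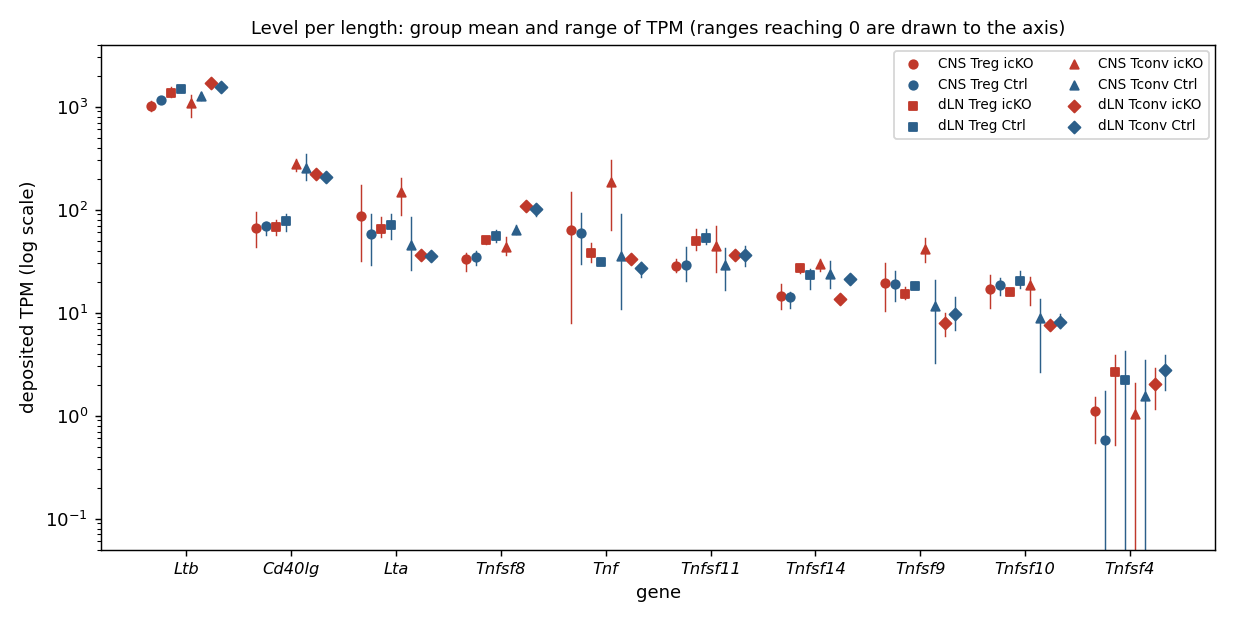
Deposited TPM of the 10 ligands on a log scale, with 8 symbols per gene for the groups (red icKO, blue Ctrl), the symbol at the group mean and the line from the lowest to the highest library. Ltb stands apart at the top with means from 1019 to 1681 TPM, and Tnfsf4 at the bottom with means up to 2.76 TPM.

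For comparisons between groups, levels are given as CPM scaled by TMM factors, in 25 libraries. A gene was called when its edgeR p, adjusted by Benjamini-Hochberg over all 13500 genes tested, was under 0.05, and log2 fold changes carry their SE. In bulk RNA, fewer cells that express a ligand and less of its RNA per cell cannot be told apart. Over the 12 comparisons of 2 groups, Tnfsf8 was called in 8, Tnfsf14 in 5, Cd40lg in 4, Tnfsf10 in 3, Lta and Tnfsf9 in 2 each and Ltb in 1. Tnf, Tnfsf4 and Tnfsf11 were called in none.

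**Figure D2:**
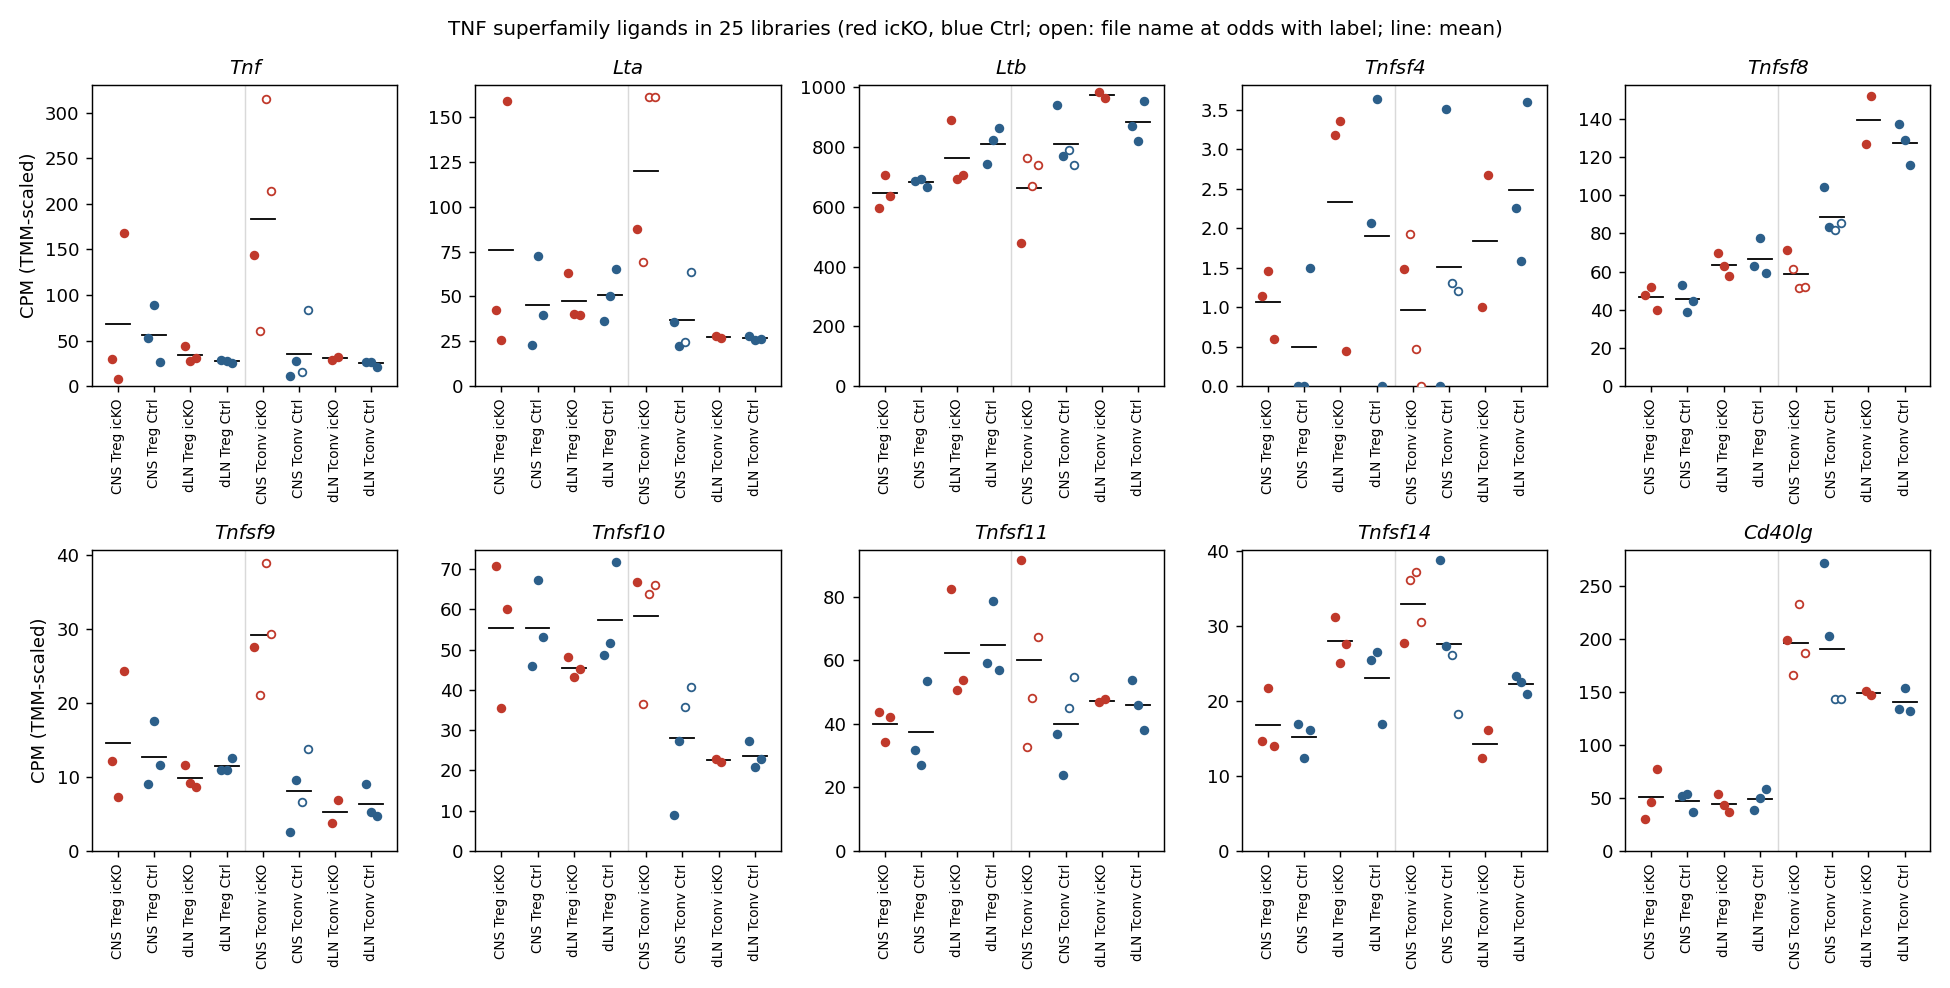
CPM of each ligand in 25 libraries by group, 1 panel per gene, with red points for icKO, blue points for Ctrl, open points for libraries whose table name is at odds with the label, and a line at each group mean. Cd40lg is at 143 to 272 CPM in CNS Tconv libraries and at 29.7 to 77 CPM in CNS Treg libraries, while Tnf spreads from 7.8 to 315 CPM among CNS libraries.

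The first question was whether the ligands differ between icKO and Ctrl mice in the same cells. In Treg cells, where the deletion is directed, no ligand passed the test in either tissue, and neither did any other gene (0% of 13500 in CNS Treg and 0% in dLN Treg cells; edgeR, 916 and 146 genes at an unadjusted p under 0.05). DESeq2 and limma also called no ligand there, and none of the 10 had an unadjusted p under 0.05. In CNS Treg cells Tnf was at 29.6, 7.8 and 168 CPM in icKO libraries and at 53.2, 89.5 and 26.2 CPM in Ctrl libraries. The icKO values enclose all Ctrl values, and no member separated the genotypes, where 7.59% of all genes did. Summed CD8 and NK cell markers did separate the genotypes in CNS Treg cells. No icKO library there was under 300.3 CPM of the library total, and no Ctrl library exceeded 183 CPM. Monocyte and macrophage marker sums overlapped, with 2756 CPM in the lowest CNS Treg library and 4345 CPM in the highest. Whether such cells altered the ligand values here was not tested. The log2 fold changes of the 10 members ran from -0.08 to 1.07 with a median of 0.13, against a median of 0.00 over all genes. In dLN Treg cells they ran from -0.33 to 0.32 with a median of -0.08, and 1 member had groups that did not overlap, against 8.76% of all genes. That member was Tnfsf10, at 48.1, 43.3 and 45.2 CPM in icKO and 48.6, 51.7 and 71.7 CPM in Ctrl libraries, and it was not called (-0.33 ± 0.35, adjusted p = 1). In dLN Tconv cells no ligand and no other gene was called (0%; 197 genes at an unadjusted p under 0.05), and DESeq2 and limma again called no ligand. With 2 icKO against 3 Ctrl libraries, 3 members did not overlap, against 16.4% of all genes. Tnfsf14 had the smallest p among them, at 12.4 and 16.2 CPM in icKO and 23.3, 22.6 and 20.9 CPM in Ctrl libraries (-0.64 ± 0.28, adjusted p = 1).

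CNS Tconv cells were the 1 population in which ligands passed the test between the genotypes. Of the 10 members, 2 rose and 1 fell in icKO libraries, where 3.1% of all genes were called, 1.58% higher and 1.53% lower. The 3 called members were also the 3 whose groups did not overlap, as was the case for 8.47% of all genes. Lymphotoxin-alpha was at 87.7, 69, 161 and 161 CPM in icKO libraries and at 35.9, 22.5, 24.8 and 63.9 CPM in Ctrl libraries. Every icKO library lay above every Ctrl library, and the log2 fold change was 1.70 ± 0.46 (adjusted p = 0.046). Tnfsf9, which costimulates T cells through the product of Tnfrsf9, was at 27.6, 21.1, 38.9 and 29.3 CPM in icKO and at 2.51, 9.59, 6.63 and 13.8 CPM in Ctrl libraries. The log2 fold change was 1.85 ± 0.41 (adjusted p = 0.018). CD30 ligand, Tnfsf8, moved the other way, at 71, 61.1, 51.4 and 51.8 CPM in icKO and at 104, 83.2, 81.5 and 85.2 CPM in Ctrl libraries (log2 fold change -0.59 ± 0.14, adjusted p = 0.024). Summed Treg markers and summed monocyte and macrophage markers also separated these libraries, while Foxp3 and Lyz2 themselves overlapped between the genotypes. The 5 Treg markers (Foxp3, Il2ra, Ctla4, Ikzf2 and Tnfrsf18) had a sum of 548 to 766 CPM of the library total in icKO libraries, against 396 to 504 CPM in Ctrl. Foxp3 itself was at 0.111 to 0.392 CPM in icKO libraries, against 0.379 to 1.5 CPM in Ctrl. The 10 monocyte and macrophage markers had a sum of 616 to 813 CPM in icKO libraries, against 349 to 601 CPM in Ctrl, of which Lyz2 was at 0.611 to 8.97 CPM and 0 to 8.94 CPM in the same order. The part of either set of transcripts in the ligand differences was not tested.

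Tnf itself had the largest fold change in that comparison without passing the test. It was at 144, 60.5, 315 and 214 CPM in icKO and at 11.6, 27.9, 15.3 and 84 CPM in Ctrl libraries, so that Ctrl replicate 4 lay above icKO replicate 2. The log2 fold change of 2.40 ± 0.68 had an adjusted p of 0.056, and of 0.013 by DESeq2 and 0.018 by limma. It passed without Ctrl replicate 4 (0.012) or without icKO replicate 2 (0.037). Tnfsf10 was at 66.9, 36.4, 63.9 and 66 CPM in icKO and at 8.92, 27.3, 35.7 and 40.7 CPM in Ctrl libraries. Its log2 fold change of 1.05 ± 0.31 had an adjusted p of 0.065 (DESeq2 0.017, limma 0.044), and it passed without the same Ctrl replicate 4 (0.027) or icKO replicate 2 (0.036). The remaining 5 members were not called, with log2 fold changes from -0.64 for Tnfsf4 to 0.58 for Tnfsf11.

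None of the 3 calls in CNS Tconv cells held in every alternative. No member passed with all 26 libraries (Lta 0.34, Tnfsf8 0.85 and Tnfsf9 0.58; 0.0919% of all genes called). A fit of the 8 CNS Tconv libraries alone also called none (0.066, 0.1 and 0.078). Lta passed no longer without Ctrl replicate 1 (0.1), 2 (0.11) or 3 (0.12) or icKO replicate 1 (0.058), 3 (0.13) or 4 (0.12). Tnfsf8 was lost without Ctrl replicate 1 (0.078) or icKO replicate 3 (0.092) or 4 (0.084), and Tnfsf9 without Ctrl replicate 3 (0.057) or icKO replicate 3 (0.07). Without the 5 libraries whose table names match the other genotype, icKO replicate 1 stood alone against Ctrl replicates 1 and 2, and was assumed to vary like the other groups. There the log2 fold changes of Lta (1.60), Tnfsf8 (-0.38) and Tnfsf9 (2.19) kept their direction and did not pass (0.27, 0.44 and 0.12). Ltb (-0.83, adjusted p = 0.035), Tnfsf10 (1.89, 0.05 after rounding) and Tnfsf11 (1.61, 0.042) passed instead, where 1.14% of all genes were called.

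Whether the genotype difference itself depended on cell type or tissue was tested as an interaction. In the CNS, the difference in Treg minus that in Tconv cells was called for none of the 10 members by edgeR, DESeq2 or limma. By edgeR 0.178% of all genes were called, 0.111% higher and 0.0667% lower. At an unadjusted edgeR p under 0.05 were 4 of the 10 members and 2025 of the 13500 genes. This difference was -2.13 ± 1.01 for Tnf, -0.96 ± 0.68 for Lta and -1.65 ± 0.62 for Tnfsf9 (adjusted p = 0.32, 0.54 and 0.22). In Tconv cells, the CNS minus the dLN difference was called for none by any of these tests (0% of all genes by edgeR). It was 2.11 ± 1.11 for Tnf and 2.10 ± 0.68 for Tnfsf9 (adjusted p = 0.65 and 0.38). Here 6 of the 10 members and 1100 of the 13500 genes had an unadjusted edgeR p under 0.05. In Treg cells the CNS minus the dLN difference ran from -0.13 to 0.83 with no call (0% of all genes). No member had an unadjusted p under 0.05 there, against 449 of the 13500 genes. A different genotype effect in CNS Tconv cells than elsewhere was thus not shown for any ligand.

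**Figure D3:**
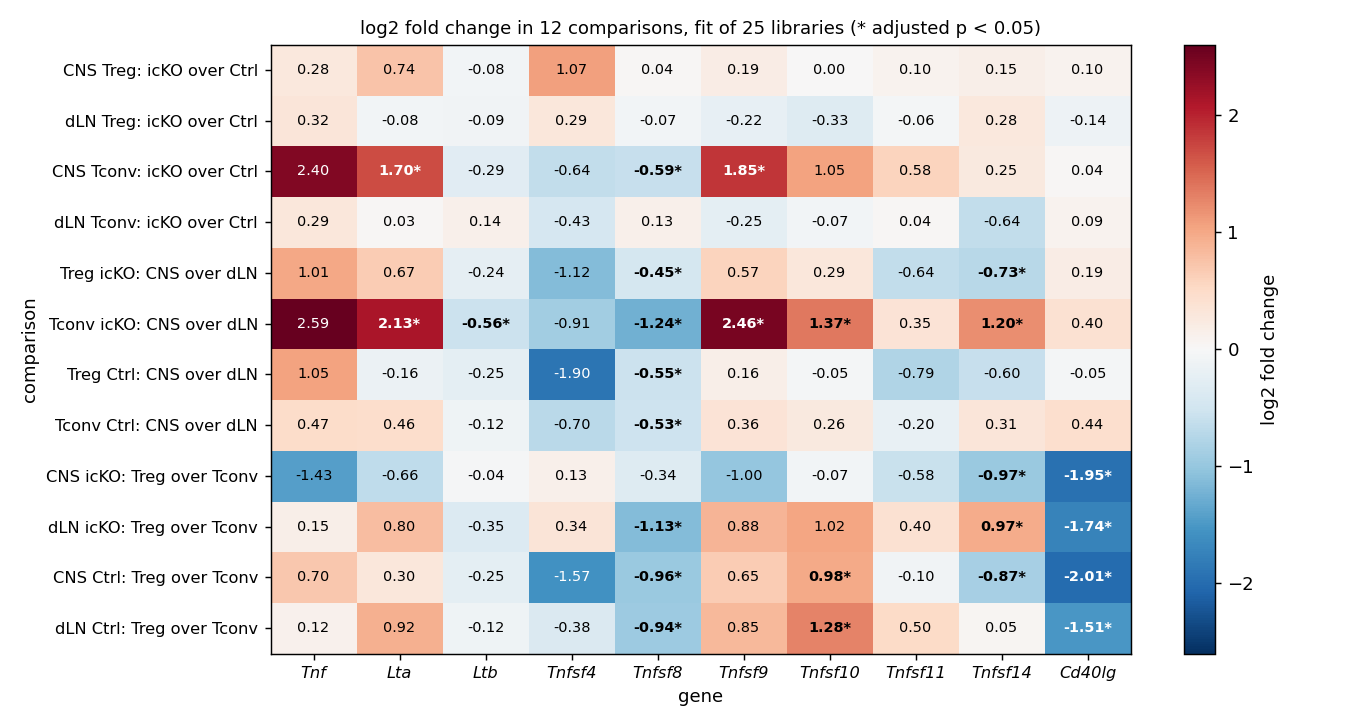
Log2 fold changes of the 10 ligands in the 12 comparisons of 2 groups in the fit of 25 libraries, with red for higher and blue for lower in the group named before the word over, with an asterisk and bold type where the adjusted p was under 0.05. Cd40lg is blue and marked in all 4 comparisons of Treg over Tconv cells, and the most marked row is CNS over dLN in icKO Tconv cells, with 6 of 10.

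Between tissues, the most constant difference was a lower level of Tnfsf8 in the CNS. In icKO Tconv cells Tnfsf8 was at 71, 61.1, 51.4 and 51.8 CPM in the CNS and at 127 and 152 CPM in the dLN (log2 fold change -1.24 ± 0.16, adjusted p = 1.9e-05). In Ctrl Tconv cells it was at 104, 83.2, 81.5 and 85.2 CPM in the CNS and at 137, 129 and 116 CPM in the dLN (-0.53 ± 0.15, adjusted p = 0.027). In icKO Treg cells it was at 47.9, 52.1 and 39.8 CPM in the CNS and at 69.8, 63 and 57.7 CPM in the dLN (-0.45 ± 0.16, adjusted p = 0.048). In Ctrl Treg cells it was at 52.9, 38.8 and 44.8 CPM in the CNS and at 63, 77.7 and 59.4 CPM in the dLN (-0.55 ± 0.16, adjusted p = 0.016). In all 4 comparisons every CNS library lay below every dLN library. The call in icKO Tconv cells held in each fit that left out 1 library, while the other 3 did not. Ctrl Tconv cells lost it without CNS replicate 2 (0.073) or 3 (0.07), or dLN replicate 1 (0.11) or 2 (0.1). Without the 5 CNS Tconv libraries it had an adjusted p of 0.028 in icKO Tconv cells and of 0.089 in Ctrl Tconv cells, and in icKO Treg cells, tested in the same fit, of 0.052. Ctrl Treg cells lost it without CNS or dLN replicate 2 (0.099 and 0.095), and icKO Treg cells without CNS replicate 1 (0.07) or 3 (0.18), or dLN replicate 1 (0.13) or 2 (0.083), and by limma (0.093). It was called in none of the 4 with all 26 libraries (adjusted p = 0.17, 0.72, 0.61 and 0.52 in the order above).

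Apart from Tnfsf8, Treg cells showed little. In icKO Treg cells 2 members were called between tissues, 0 higher and 2 lower (22.5% of all genes called, 13.1% higher and 9.41% lower), and 3 did not overlap, against 40.6%. The second was Tnfsf14, at 14.7, 21.7 and 14 CPM in CNS and 31.2, 25.1 and 27.6 CPM in dLN libraries (-0.73 ± 0.25, adjusted p = 0.037). It was lost without each of CNS replicates 1 (0.1) and 3 (0.13) and dLN replicates 1 (0.1), 2 (0.053) and 3 (0.069), and with all 26 libraries (0.68). In Ctrl Treg cells Tnfsf8 was the 1 member called, 0 higher and 1 lower, where 21.8% of all genes were called (13.3% higher, 8.55% lower), and 4 members did not overlap, against 42.3% of all genes. Tnfsf14 was not called in these cells (-0.60, adjusted p = 0.086) except without dLN replicate 3 (0.049) and by limma (0.027). Tnfsf11 (-0.79, 0.083) passed without CNS replicate 3 (0.021) or without the 5 CNS Tconv libraries (0.034). Without CNS replicate 3, Tnfsf4 also passed (0.034), with no count left in the CNS group. CNS Treg libraries of both genotypes also carried transcripts of myeloid cells. All 10 monocyte and macrophage markers were present, at a summed 2756 to 4345 CPM of the library total, against 199 to 878 CPM in dLN Treg libraries. All 8 microglia markers summed to 1776 to 2419 CPM in CNS Treg libraries and 94.3 to 147 CPM in dLN Treg libraries, where 2 of them were at 0. Their part in the Treg results was not tested.

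In icKO Tconv cells 6 members were called between tissues, 4 higher and 2 lower in the CNS, where 7.81% of all genes were higher and 6.3% lower (14.1% in all). There 8 members did not overlap, against 41.9% of all genes. The 10 members had a median log2 fold change of 0.80, against 0.00 over all genes. Lta was at 87.7, 69, 161 and 161 CPM in CNS and at 28 and 26.8 CPM in dLN libraries (2.13 ± 0.61, adjusted p = 0.021). Tnfsf9 was at 27.6, 21.1, 38.9 and 29.3 CPM in CNS and at 3.8 and 6.82 CPM in dLN libraries (2.46 ± 0.56, adjusted p = 0.0044). Tnfsf10 was at 66.9, 36.4, 63.9 and 66 CPM in CNS and at 22.8 and 22.2 CPM in dLN libraries (1.37 ± 0.40, adjusted p = 0.023). Tnfsf14, LIGHT, was at 27.7, 36.2, 37.2 and 30.6 CPM in CNS and at 12.4 and 16.2 CPM in dLN libraries (1.20 ± 0.28, adjusted p = 0.0048). Ltb was at 478, 763, 668 and 739.6 CPM in CNS and at 982 and 963 CPM in dLN libraries, and it fell (-0.56 ± 0.15, adjusted p = 0.013). In each of these the CNS and dLN libraries were apart. Tnf had 144, 60.5, 315 and 214 CPM in CNS and 28.9 and 32.2 CPM in dLN libraries, and was not called by edgeR (2.59 ± 0.91, adjusted p = 0.062). It passed without CNS replicate 2 (0.044), in a fit of these groups alone (0.0087), and by DESeq2 (0.018) and limma (0.0025), each of which called 7 members there. Summed Treg, monocyte and macrophage, and microglia markers were higher in the CNS in the same icKO Tconv libraries, while Foxp3 and Lyz2 themselves were lower there. Treg markers summed to 548 to 766 CPM in CNS and 157 to 206 CPM in dLN libraries, with Foxp3 at 0.111 to 0.392 and 0.589 to 0.751 CPM. Monocyte and macrophage markers were at 616 to 813 CPM in CNS and 169 to 215 CPM in dLN libraries, with Lyz2 at 0.611 to 8.97 and 53.8 to 72.9 CPM, and microglia markers at 205 to 303 CPM and 146 to 179.9 CPM. Their part in the tissue difference was not tested. In Ctrl Tconv cells Tnfsf8 was the 1 member called (8.91% of all genes, 5.97% higher and 2.94% lower), and the 1 that did not overlap, against 19.2% of all genes.

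The dLN side of that icKO comparison rests on 2 libraries. Without dLN replicate 1, Lta (0.16), Ltb (0.11), Tnfsf9 (0.12), Tnfsf10 (0.17) and Tnfsf14 (0.14) did not pass, and without dLN replicate 2, Lta (0.15), Ltb (0.073) and Tnfsf10 (0.16) did not. With all 26 libraries 2 members were called, Ltb (-0.72, adjusted p = 0.0033) and Tnfsf9 (3.02, 0.026), where 9.24% of all genes were, and the median of all genes shifted to 0.22. Tnfsf14 then had the other sign (-1.49, adjusted p = 0.14), and the library that stands apart held 279 CPM of it by its total. That library also held 2917 CPM of neutrophil, 2526 CPM of monocyte and macrophage, 481 CPM of B cell and 965 CPM of Treg markers, against 1.03 to 2.61, 169 to 243, 2.16 to 6.13 and 157 to 213 CPM in the other dLN Tconv libraries. Without the 5 CNS Tconv libraries, Ltb (-1.02, adjusted p = 0.0024) and Tnfsf8 (-0.96, 0.028) passed, and Lta (0.24), Tnfsf9 (0.06), Tnfsf10 (0.055) and Tnfsf14 (0.15) did not.

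The tissue difference was compared between cell types by interaction. In icKO mice, Treg minus Tconv cells, 2 members were called, 1 higher and 1 lower, where 8.28% of all genes were (4.27% higher, 4.01% lower). Tnfsf14 was lower in the CNS in Treg cells and higher in Tconv cells, an interaction of -1.94 ± 0.37 (adjusted p = 0.0023), which passed in each fit that left out 1 library and without the 5 CNS Tconv libraries (-1.69, 0.031). In the fit of 26 it was 0.72 (adjusted p = 0.82). Tnfsf8 was lower in the CNS in both cell types and fell less in Treg cells (0.80 ± 0.23, adjusted p = 0.034). That call was lost with all 26 libraries (0.86), without the 5 (0.36), and in 8 of 12 fits that left out 1 library. Those left out CNS Tconv icKO replicate 3 (0.064) or 4 (0.059), CNS Treg icKO replicate 1 (0.054) or 2 (0.076), dLN Tconv icKO replicate 1 (0.078) or 2 (0.23), or dLN Treg icKO replicate 2 (0.083) or 3 (0.11). Ltb passed without the 5 (0.78, adjusted p = 0.044). In Ctrl mice no member was called by edgeR, DESeq2 or limma (3.67% of all genes by edgeR, 2.55% higher and 1.12% lower). At an unadjusted edgeR p under 0.05 were 1 of the 10 members and 2455 of the 13500 genes. Tnfsf14 had -0.92 ± 0.34 there (adjusted p = 0.14), and it passed without CNS Tconv Ctrl replicate 4 (0.048).

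Between cell types, CD40 ligand was the firmest difference of the set. It fell in Treg relative to Tconv cells in both tissues and genotypes, in the fit of 25 and the fit of 26 libraries, and in each fit that left out 1 library. In icKO CNS cells Cd40lg was at 29.7, 46 and 77 CPM in Treg and at 199, 166, 233 and 187 CPM in Tconv libraries (-1.95 ± 0.27, adjusted p = 3.7e-05). In Ctrl CNS cells it was at 51.7, 53.8 and 36.4 CPM in Treg and at 272, 203, 143 and 143 CPM in Tconv libraries (-2.01 ± 0.27, adjusted p = 2.4e-05). In icKO dLN cells it was at 53.3, 43.1 and 36.9 CPM in Treg and at 151 and 147 CPM in Tconv libraries (-1.74 ± 0.30, adjusted p = 0.00053). In Ctrl dLN cells it was at 38.9, 50.2 and 58.3 CPM in Treg and at 134, 154 and 132 CPM in Tconv libraries (-1.51 ± 0.28, adjusted p = 0.00078). No Treg library reached a Tconv library in any of the 4. With all 26 libraries the adjusted p was 0.0021, 0.0012, 0.00098 and 0.02 in the same order, and without the 5 CNS Tconv libraries 0.0028 and 4.1e-05 in the CNS.

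CD30 ligand had the same direction. Summed T cell markers were also lower in Treg libraries, as given below, and their part was not tested. Tnfsf8 was called lower in Treg cells in 3 of the 4 comparisons, and each of these held when any 1 library was left out. In Ctrl CNS cells it was at 52.9, 38.8 and 44.8 CPM in Treg and at 104, 83.2, 81.5 and 85.2 CPM in Tconv libraries (-0.96 ± 0.15, adjusted p = 0.00013). In icKO dLN cells it was at 69.8, 63 and 57.7 CPM in Treg and at 127 and 152 CPM in Tconv libraries (-1.13 ± 0.17, adjusted p = 0.00019). In Ctrl dLN cells it was at 63, 77.7 and 59.4 CPM in Treg and at 137, 129 and 116 CPM in Tconv libraries (-0.94 ± 0.16, adjusted p = 0.00039). In icKO CNS cells, whose Tconv libraries had the lower Tnfsf8 described above, it was not called (-0.34). Tnfsf8 was called in none of these in the fit of 26 (0.14, 0.38 and 0.31).

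Tnfsf14 and Tnfsf10 were called between cell types in some groups. In CNS cells Tnfsf14 fell in Treg libraries. It was at 14.7, 21.7 and 14 CPM in Treg and at 27.7, 36.2, 37.2 and 30.6 CPM in Tconv libraries of icKO mice (-0.97 ± 0.24, adjusted p = 0.008). In Ctrl mice it was at 16.9, 12.4 and 16.2 CPM in Treg and at 38.9, 27.3, 26.1 and 18.3 CPM in Tconv libraries (-0.87 ± 0.24, adjusted p = 0.013), and it was lost without CNS Treg Ctrl replicate 2 (0.076). Without the 5 CNS Tconv libraries the icKO call was lost (0.25) and the Ctrl call held (0.0067). Neither passed in the fit of 26 (0.7 and 0.64). In icKO dLN cells it was at 31.2, 25.1 and 27.6 CPM in Treg and at 12.4 and 16.2 CPM in Tconv libraries, the other direction (0.97 ± 0.29, adjusted p = 0.033). That call was lost without Tconv replicate 1 (0.32) or 2 (0.081) or Treg replicate 1 (0.084) or 3 (0.061), and the sign turned with all 26 libraries (-1.67, 0.17).

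Tnfsf10 rose in Treg cells of Ctrl mice in both tissues. In the CNS it was at 45.9, 67.4 and 53.2 CPM in Treg and at 8.92, 27.3, 35.7 and 40.7 CPM in Tconv libraries (0.98 ± 0.33, adjusted p = 0.042). In the dLN it was at 48.6, 51.7 and 71.7 CPM in Treg and at 27.2, 20.8 and 22.8 CPM in Tconv libraries (1.28 ± 0.36, adjusted p = 0.022). The CNS call was lost without Treg replicate 2 (0.16) or 3 (0.069) or Tconv replicate 1 (0.065) or 2 (0.08) and by limma (0.053), and the dLN call without Tconv replicate 2 (0.095) or 3 (0.076) or Treg replicate 3 (0.09). Neither passed in the fit of 26 (0.65 and 0.66).

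Over all 10 members, Treg over Tconv calls numbered 0 higher and 2 lower in icKO CNS cells, where 12.6% of all genes were called (8.38% higher, 4.2% lower). They numbered 1 higher and 3 lower in Ctrl CNS cells (17.9%, with 10.8% higher and 7.03% lower). In icKO dLN cells 1 was higher and 2 lower (9.91%, with 5.44% higher and 4.47% lower), and in Ctrl dLN cells 1 was higher and 2 lower (11.5%, with 6.04% higher and 5.48% lower). Members whose Treg and Tconv libraries did not overlap numbered 2, 5, 8 and 6 in the same order, against 20.8%, 22.3%, 52.1% and 38.4% of all genes. With all 26 libraries 1 member, Cd40lg, was called in each, where 3.42%, 6.08%, 3.95% and 1.8% of all genes were. The myeloid markers also differed between CNS cell types. The summed monocyte and macrophage markers were at 2756 to 4068 CPM in icKO Treg and 616 to 813 CPM in icKO Tconv libraries, and at 3184 to 4345 CPM in Ctrl Treg and 349 to 601 CPM in Ctrl Tconv libraries. In dLN libraries they were at 497 to 747 CPM in icKO Treg and 169 to 215 CPM in icKO Tconv cells, and at 199 to 878 CPM and 182 to 243 CPM in Ctrl Treg and Ctrl Tconv cells. Summed T cell markers were lower in Treg than Tconv libraries in both tissues and genotypes. They were at 4064 to 5190.4 and 5328 to 5853 CPM in icKO CNS Treg and Tconv cells. In Ctrl CNS cells the sums were 3819 to 4353 and 5654 to 6566 CPM. In icKO dLN cells they were 4175 to 4891 and 5580.1 to 5807 CPM. In Ctrl dLN cells they were 4123 to 4577 and 5311 to 5762 CPM. Cd3e overlapped in icKO CNS cells. The part of myeloid or T cell transcripts in the cell type differences was not tested.

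Tnf, Lta and Tnfsf9 were high in the same CNS libraries. In each of the 4 CNS groups, the library with the most Tnf also had the most Lta and the most Tnfsf9, although in CNS Tconv icKO replicates 3 and 4 both had 161 CPM of Lta after rounding. These were replicate 3 of CNS Treg icKO (168 CPM of Tnf), replicate 2 of CNS Treg Ctrl (89.5 CPM), replicate 3 of CNS Tconv icKO (315 CPM) and replicate 4 of CNS Tconv Ctrl (84 CPM). The highest library exceeded the lowest in Tnf by 21.5-fold in CNS Treg icKO, 3.41-fold in CNS Treg Ctrl, 5.21-fold in CNS Tconv icKO and 7.26-fold in CNS Tconv Ctrl cells. In dLN groups the same ratio was 1.1 to 1.57, and the library with the most Tnf had the most Lta and Tnfsf9 in dLN Treg icKO and dLN Tconv Ctrl cells but not in the other dLN groups. For Lta the CNS ratios ran from 2.34 to 6.17 and the dLN ratios from 1.04 to 1.79. Nr4a1, an early gene of antigen receptor signalling, was highest in the same library in 3 of the 4 CNS groups, and in CNS Treg Ctrl that library had 90.4 CPM after rounding, as did replicate 1. Egr1, another such gene, was highest in the same library in 3 of the 4 groups, and Fos in 2. In CNS Treg icKO both were highest in replicate 1 (136 CPM of Egr1 and 510.1 CPM of Fos) and not in replicate 3 (112 and 427 CPM). In CNS Tconv Ctrl, Fos was lowest in replicate 4, at 95.2 CPM against 119 to 134 CPM in the others. Summed CD8 and NK cell markers were highest in the same library in CNS Treg icKO, at 557 CPM against 300.3 and 393 CPM in the others. The same held in CNS Treg Ctrl (183 CPM) and CNS Tconv Ctrl (188 CPM). In CNS Tconv icKO it did not, with 157 CPM in replicate 3 and 247 CPM in replicate 4. The part of such cells in the ligand values was not tested. The order of libraries within a group is given as a description.

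CNS Treg icKO replicate 3, with the CD8 and NK cell markers given above, alone decided several comparisons of these 3 ligands. In that library Tnf was at 168, Lta at 159 and Tnfsf9 at 24.3 CPM, against 7.8 to 29.6, 25.7 to 42.7 and 7.31 to 12.1 CPM in the other CNS Treg icKO libraries. With it, edgeR called none of the 3 in Treg over Tconv cells of the icKO CNS (adjusted p = 0.22, 0.42 and 0.15), while limma gave 0.049 for Tnf and for Tnfsf9. Without it, all 3 were called lower in Treg cells (0.0076, 0.016 and 0.042). Likewise the icKO tissue difference, Treg minus Tconv, was not called for Tnf (-1.58 ± 1.13, adjusted p = 0.46), Lta (-1.46 ± 0.77, 0.28) or Tnfsf9 (-1.89 ± 0.70, 0.1; limma 0.021), and without that library the adjusted p was 0.039, 0.018 and 0.034.

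**Figure D4:**
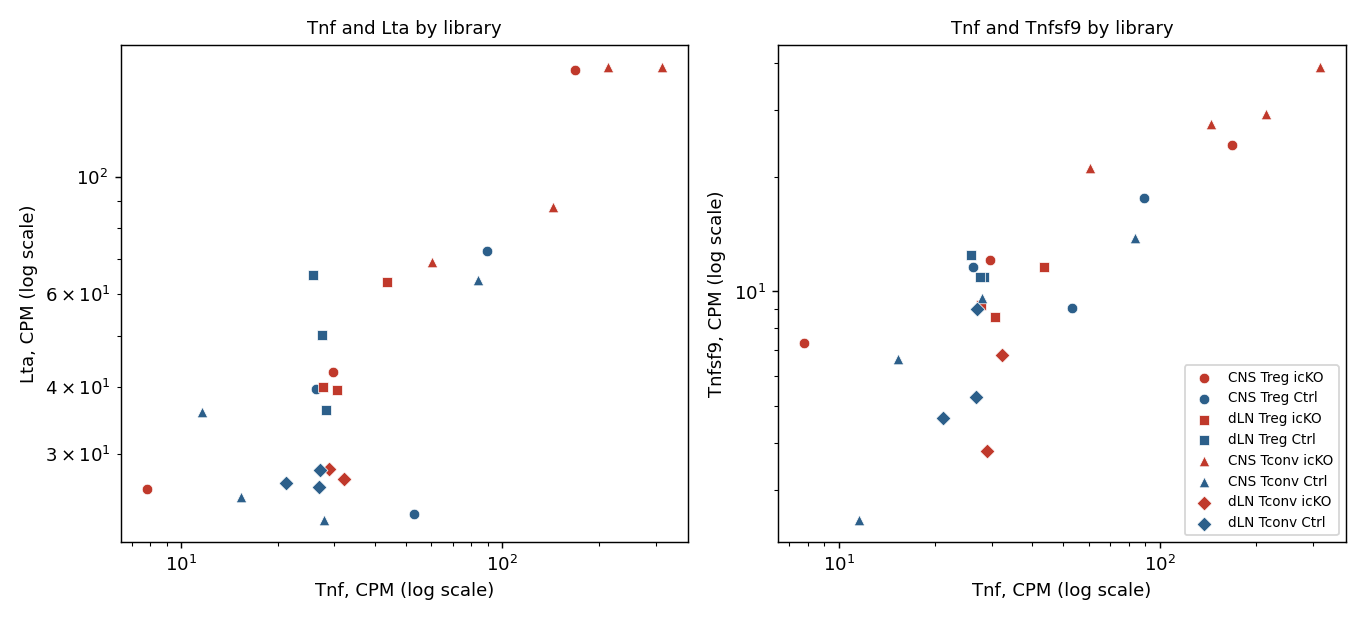
CPM of Tnf against Lta (left) and Tnfsf9 (right) in 25 libraries on log scales, red for icKO and blue for Ctrl, with circles for CNS Treg, squares for dLN Treg, triangles for CNS Tconv and diamonds for dLN Tconv libraries. The CNS symbols spread from 7.8 to 315 CPM of Tnf, and the library with the most Tnf in each CNS group is also the highest of its group on both vertical axes.

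Other genes of the pathway were read from lists of other TNF superfamily ligands (6 of 8 tested), receptors of the members (10 of 11), genes of ligand shedding and RNA decay (11 of 11), and TRAF and NF-kB genes (14 of 14). In CNS Tconv libraries the Treg and myeloid marker sums differ between the genotypes as given above, while Foxp3 and Lyz2 themselves overlap. There, icKO over Ctrl, 1.58% of all genes were called higher and 1.53% lower. Of the receptors, 3 rose and 0 fell. They were Tnfrsf1b (0.72 ± 0.14, adjusted p = 0.0091), Tnfrsf9, the receptor of the Tnfsf9 product (1.97 ± 0.49, 0.031), and Tnfrsf4, the OX40 receptor (0.88 ± 0.23, 0.042). The mean of Tnfrsf1b was 343 ± 51.9 CPM in icKO CNS Tconv libraries, against 208 ± 25.9 CPM in Ctrl (SD, n = 4 each). Furin, a proprotein convertase, rose in the shedding and decay list (1.09 ± 0.26, 0.025; 1 higher, 0 lower), and Tnfaip3, the A20 inhibitor of NF-kB, in the TRAF and NF-kB list (1.15 ± 0.24, 0.013; 1 higher, 0 lower). None of the 6 other ligands was called by edgeR or DESeq2, and limma called 1. An unadjusted edgeR p under 0.05 was found for 1 of the 6, against 2435 of the 13500 genes. None of these 5 genes passed with all 26 libraries (0.16 to 1), and without the 5 CNS Tconv libraries Tnfaip3 alone did (0.018). Tnfrsf1b held in each fit that left out 1 library (adjusted p up to 0.041). Tnfaip3 was lost without icKO replicate 3 (0.063). Furin was lost without Ctrl replicate 1 or 3 or icKO replicate 2, 3 or 4 (up to 0.07). Tnfrsf9 (up to 0.094) and Tnfrsf4 (up to 0.16) were each lost without Ctrl replicate 1, 2 or 3 or icKO replicate 1, 3 or 4. The genotype difference of Tnfrsf1b in the CNS, Treg minus Tconv, was -1.31 ± 0.22 (adjusted p = 0.024), the 1 call of these lists in that interaction. It was lost with all 26 libraries (1) and without CNS Tconv Ctrl replicate 3 (0.05 after rounding), CNS Tconv icKO replicate 1 (0.056), CNS Treg Ctrl replicate 2 (0.057) or CNS Treg icKO replicate 2 (0.061). In the other 3 genotype comparisons no gene of these lists was called.

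Between tissues, Fasl, the death ligand of the same family, rose in the CNS in all 4 comparisons. It averaged 53.5 ± 34.2 CPM in CNS and 8.55 ± 1.05 CPM in dLN icKO Treg libraries (2.64 ± 0.49, adjusted p = 0.00058), and 32.9 ± 16 CPM in CNS and 6.6 ± 5.09 CPM in dLN Ctrl Treg libraries (2.31 ± 0.49, 0.002; SD, n = 3 each). In icKO Tconv cells it was at 135 ± 20.5 CPM in the CNS (n = 4) and 19.3 ± 4.34 CPM in the dLN (n = 2; 2.80 ± 0.56, 0.0013). In Ctrl Tconv cells it was at 69.8 ± 12.6 CPM in the CNS (n = 4) and 22.1 ± 1.96 CPM in the dLN (n = 3; 1.66 ± 0.45, 0.023). The Ctrl Tconv call was lost without CNS replicate 1 (0.057) or dLN replicate 1 (0.075), 2 (0.086) or 3 (0.087). With all 26 libraries Fasl passed in Treg but not in Tconv cells (0.17 in icKO and 0.28 in Ctrl), and without the 5 CNS Tconv libraries it had an adjusted p of 0.062 in icKO Tconv cells. CD8 and NK cell markers, whose cells also make Fasl, summed to 300.3 to 557 CPM in CNS and 39.1 to 57.9 CPM in dLN icKO Treg libraries and to 161 to 183 and 34.6 to 49.3 CPM in CNS and dLN Ctrl Treg libraries. In Tconv cells they were at 136 to 247 CPM in CNS and 101 to 122 CPM in dLN icKO libraries, and at 123 to 188 and 86.4 to 118 CPM in CNS and dLN Ctrl libraries. Their part in the Fasl result was not tested.

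Among the 10 receptors tested, CNS over dLN, 5 were higher and 2 lower in icKO Treg cells (22.5% of all genes called), and 5 higher and 0 lower in Ctrl Treg cells (21.8% of all genes). In the fit of 26 these were 1 and 1 in icKO and 1 and 0 in Ctrl cells. Tnfrsf1a, the TNFR1 gene, rose by 1.57 ± 0.23 in icKO (adjusted p = 6.9e-05) and by 0.99 ± 0.23 in Ctrl Treg cells (0.0039). Tnfrsf11a, the RANK gene, rose by 4.30 ± 1.01 (0.0041) and 4.38 ± 1.02 (0.0043) in the same order, and Ltbr by 4.87 ± 1.24 in Ctrl cells (0.0074). Tnfrsf11a (0.066 in icKO, 0.058 in Ctrl) and Ltbr (0.054) did not pass in the fit of 26. Tnfrsf8, the CD30 gene, fell by 3.68 on the log2 scale (SE 0.77, 0.0016) in icKO Treg cells. In icKO CNS cells, Treg over Tconv, Tnfrsf11a (4.16 ± 0.89, adjusted p = 0.0028) and Ltbr (4.39 ± 1.07, 0.0079) were also called higher, but neither passed without the 5 CNS Tconv libraries (0.055 and 0.17) or with all 26 (0.052 and 0.059). The ligand Tnfsf13 rose in CNS Treg over CNS Tconv cells of icKO (6.31 ± 1.23, 0.0013) and Ctrl mice (6.87 ± 1.26, 0.00052), and passed in both without the 5 (0.047 and 0.0014) and with all 26 (0.016 and 0.0062). The same CNS Treg libraries hold the myeloid transcripts given above.

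Among regulators of ligand RNA and release, Zfp36, which destabilises Tnf mRNA, rose in CNS over dLN Treg cells by 2.12 ± 0.34 in icKO (adjusted p = 0.00014) and 2.27 ± 0.34 in Ctrl mice (9.7e-05). Zfp36 averaged 489 ± 78.9 CPM in CNS and 112 ± 9.18 CPM in dLN icKO Treg libraries. Zfp36l2, of the same family, rose in icKO Treg cells (1.24 ± 0.21, 0.00025). Rc3h1, the Roquin-1 gene, fell in CNS Treg cells of icKO (-1.07 ± 0.24, 0.0026; 0.071 with all 26 libraries) and Ctrl mice (-1.23 ± 0.24, 0.001). Furin, followed across comparisons after its values were seen, rose in the CNS in all 4, most in icKO Tconv cells (2.83 ± 0.37, 1.6e-05), where it averaged 548 ± 114 CPM in CNS and 76.8 ± 4.81 CPM in dLN libraries. Its calls in icKO Treg (0.016) and Ctrl Tconv cells (0.016) were lost with all 26 libraries (0.063 and 0.067). They were also lost in 4 of 6 and 3 of 7 fits that left out 1 library, namely without icKO Treg CNS replicate 1 (0.068) or 3 (0.073) or dLN replicate 1 (0.076) or 2 (0.069), and without Ctrl Tconv CNS replicate 2 (0.051) or dLN replicate 2 (0.082) or 3 (0.076). Tnfaip3 rose in the CNS in icKO Tconv (1.86 ± 0.32, 0.00038; 0.1 with all 26 libraries), icKO Treg (1.40 ± 0.28, 0.0012) and Ctrl Treg cells (1.63 ± 0.28, 0.0004). Zfp36 was also called higher in CNS Treg than in CNS Tconv cells of icKO (1.38 ± 0.30, 0.0032) and Ctrl mice (1.52 ± 0.30, 0.0011). CNS Treg libraries hold the myeloid transcripts given above. Their neutrophil markers summed to 104 to 927 CPM, against 0.667 to 10.7 CPM in dLN Treg libraries. The part of these transcripts in the Treg results was not tested. Between cell types, Tnfrsf4 was higher in Treg cells in all 4 comparisons, with all 26 libraries and without the 5 CNS Tconv libraries too. It rose by 1.71 ± 0.25 in icKO CNS (6.2e-05), 2.44 ± 0.25 in Ctrl CNS (9.6e-07), 3.46 ± 0.35 in icKO dLN (1.7e-06) and 3.10 ± 0.29 in Ctrl dLN cells (2.6e-07).

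The genes most like each member were ranked by the correlation of log2(CPM + 1) across the 8 group means, among 9384 genes with at least 10 CPM in a group. For Cd40lg they were Grap2 and Lat (Pearson r = 0.983 each), both adaptors of T cell receptor signalling. For Tnfsf8 they were Actn1 and Igfbp4 (0.994 each), for Ltb Ankrd49 (0.976) and Idh2 (0.974), and for Tnf Nlrc5 (0.981) and Ppp1r16b (0.978). For Lta they were Nlrc3 (0.988) and Sdccag8 (0.984), and for Tnfsf9 Ankrd37 and Wdr1 (0.974 each). Tnfsf10 was most like Ehd1 (0.981) and Rab8b (0.980), Tnfsf11 like Srp72 (0.974) and Ddx46 (0.970), and Tnfsf14 like Nmt2 (0.958) and Entpd7 (0.954). Tnfsf4, near the floor, was most like Polr2h (0.988) and Eif3i (0.980). The 8 points are means that share cell type, tissue and genotype, and the values are given as a description.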

How the data were processed

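RNA was sequenced from 26 libraries of sorted CD4 T cells, made with the SMART-Seq v4 and Nextera kits per the labels' protocols. FastQC, Trimmomatic, STAR 2.5.3a, RSEM 1.2.28 and build mm10 are named in the submitters' processing notes. The deposited tables give RSEM expected counts, TPM and FPKM per gene, per the file headers. The expected counts were rounded and tested with edgeR 4.0.16 (R 4.3.3), using TMM factors, filterByExpr and the quasi-likelihood test with Benjamini-Hochberg adjustment, in 1 fit of 8 group means over 25 libraries. The deposited TPM were used to order genes within a group, and the deposited FPKM were not used. Standard errors were derived from the fold change and the F statistic. The test was checked on simulated counts. The fit treats all libraries as independent, though the labels do not say whether libraries of different groups share a mouse. Groups follow the labels. The members and the lists of other genes were chosen with earlier results of these data known. All 10 members were described. From each other list, the counts called and up to 3 genes with the smallest p per comparison were taken, with Furin followed further after its values were seen, and from the likeness ranking the 2 highest per member. Alternatives were all 26 libraries, the compared groups alone, no 5 CNS Tconv libraries, each replicate left out, the replicate block, other filters, DESeq2 1.42.0 and its size factors, and limma 3.58.1 with quality weights. Depth was 12.4 to 18.5 M counts in 25 libraries, and floors cover counting error only.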

Additional observations from a re-analysis of the deposited data

Results flagged for a closer look

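Among 20 sets of 4 CNS Tconv libraries (10 genes in each genotype), 2 had a library far from the rest, where chance gives about 1 in 20. The count is near that rate, and the sets are not independent, since the 10 genes were measured in the same libraries. Tnfsf10 in CNS Tconv icKO libraries was lowest in replicate 2 (36.4 CPM), with a gap of 0.904 of the whole range. Tnfsf8 in CNS Tconv Ctrl libraries was highest in replicate 1 (104 CPM), with a gap of 0.836 of the range.

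The tissue difference in icKO mice was called different between cell types, Treg minus Tconv, for Tnfsf14 (-1.94 on the log2 scale) and Tnfsf8 (0.80), by the interaction test on 25 libraries. It rests on 2 dLN Tconv icKO libraries. With all 26 libraries Tnfsf14 had the other sign and neither was called. The Tnfsf8 call was also lost in most fits that left out 1 library, as given above.

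The dLN Tconv library labelled icKO replicate 3, left out of the fit of 25, held ligand transcripts. By its library total it had 82.7 CPM of Lta, 1461 CPM of Ltb, 279 CPM of Tnfsf14 and 373 CPM of Cd40lg. The dLN Tconv Ctrl libraries had 25.9 to 27.9, 821 to 955, 20.9 to 23.3 and 132 to 154 CPM of the same genes, TMM-scaled. Tnf, Tnfsf4, Tnfsf9, Tnfsf10 and Tnfsf11 had a count of 0 in that library, and Tnfsf8 was at 28.4 CPM. It also held 2917 CPM of neutrophil, 2526 CPM of monocyte and macrophage and 481 CPM of B cell markers, against 1.03 to 2.61, 169 to 243 and 2.16 to 6.13 CPM in the other dLN Tconv libraries, and their part in its ligand values was not tested.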

How the results depend on the processing

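With all 26 libraries, the number of members called was 0 for icKO over Ctrl in CNS Tconv cells, 0 for CNS over dLN in icKO Treg, Ctrl Treg and Ctrl Tconv cells and 2 in icKO Tconv cells, 1 in each of the 4 Treg over Tconv comparisons, and 0 for the icKO tissue difference between cell types. Tnfsf14 then reversed in icKO Tconv cells between tissues (-1.49), in icKO dLN cells between cell types (-1.67) and in the icKO tissue difference (0.72). Over 30 called or compared results, that fit kept 9, weakened 18 and reversed 3. With the compared groups alone, the counts that moved were 0 in CNS Tconv genotype, 0 in icKO Treg, Ctrl Treg and Ctrl Tconv tissue, 5 in icKO dLN and 2 in Ctrl CNS cell type comparisons. Without the 5 CNS Tconv libraries they were 1 in icKO Treg, 2 in Ctrl Treg, 2 in icKO Tconv and 0 in Ctrl Tconv tissue, and 1 in icKO CNS cell type comparisons. DESeq2 called 5 members in CNS Tconv cells between genotypes and 7 in icKO Tconv cells between tissues, where limma also called 7. Limma called 5 in CNS Tconv cells between genotypes, and 1 in icKO Treg and 2 in Ctrl Treg tissue comparisons. Between cell types limma called 4 in icKO CNS, 3 in Ctrl CNS and 5 in icKO dLN cells, and it called 3 in the icKO tissue difference. In icKO Treg tissue DESeq2's size factors gave 1 and no filter gave 0. The cause was not tested.

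Leaving out 1 library, the counts ran from 0 to 5 in CNS Tconv genotype, 0 to 2 in icKO Treg, 0 to 3 in Ctrl Treg, 1 to 7 in icKO Tconv and 0 to 1 in Ctrl Tconv tissue comparisons. They ran from 2 to 5 in icKO CNS, 2 to 4 in Ctrl CNS, 2 to 3 in icKO dLN and 2 to 3 in Ctrl dLN cell type comparisons, from 1 to 5 in the icKO and 0 to 1 in the Ctrl tissue difference, and stayed at 0 in the other 6. The replicate block gave 2 in Ctrl Treg tissue and 1 in the icKO tissue difference. Same-numbered libraries of 1 genotype had correlations of their deviations from -0.12 to 0.11 over 33 pairs, 1 of them over 0.1. Differently numbered libraries of 1 genotype had correlations from -0.17 to 0.19 over 83 pairs. With so few libraries per group, these values cannot show whether same-numbered libraries share a mouse. Tnfsf4, at a few counts, and the 2 dLN Tconv icKO libraries limit what could be detected.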
